A study of Rattus norvegicus with 14 samples.

Results

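The genes described here are those of potassium channels, chosen as every probe whose platform gene symbol begins with Kcn. There were 66 such probes among 4952, and they stood for 64 genes among the 4682 features of the table, since Kcnh2 and Kcnj3 had 2 probes each. The Entrez identifiers of 64 of the 64 genes were found in the RefSeq table of the GRCr8 assembly. The rats were 20 days old, their small intestine had been perfused with HG or HF, and its total RNA was hybridised to 2-colour arrays. These names are not spelled out in the labels and are read here as high glucose and high fructose, which rests on what is known of the study.

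On each array of a pair, HG and HF samples with 1 number were hybridised together, so the ratio itself compares the perfusions. At 4 h there were 5 such pairs, with a second array of pair 2 (array 6) besides, and at 20 min there were 4 pairs. Another 3 arrays, called self-self, carried 1 RNA of the 4 h perfusion in both channels (1HG, 3HG and 3HF). A ratio on these cannot come from the perfusions and belongs to the probe, its dyes or the array. The last array held primers from a labelling kit, per its label. No array is labelled as intestine without perfusion, and no self-self array held RNA of the 20 min perfusion. The labels name no sex or strain and do not say whether pairs came from different animals, so p-values measure only the spread between these arrays. The question asked of the channel genes is which of them differed between the perfusions at each time, and whether the difference depended on the time.

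Potassium channels let potassium leave or enter the cell down its gradient and so set the membrane voltage. The pore is built from alpha subunits, and voltage-gated channels, inward rectifiers, two-pore-domain channels and channels gated by calcium or sodium differ in what opens them. Auxiliary subunits change the gating, the surface expression or the pharmacology of the pore. In intestinal epithelium, basolateral potassium channels keep the cell negative inside, which drives chloride secretion and the sodium-coupled uptake of sugars. In the muscle layers, in enteric neurons and in enteroendocrine cells, potassium channels govern excitability and hormone release.

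The values are log ratios, treated as log2, with each array centred on its median. The labels give them no direction. Values above 0 likely mean more RNA with HF, because the fructose transporter gene Slc2a5 had a mean of 1.65 at 4 h, against -0.04 on the self-self arrays. At 20 min its mean was -0.32, so it gives no such basis there. Every 4 h minus 20 min difference below takes the direction to be the same at both times, which could not be checked. The differences from self-self likewise take the dyes to be in the same order on the arrays. The ratios hold no signal intensity, so neither the level of a channel RNA nor its presence in the tissue could be read from them, and the tissue could not be checked by marker levels. In whole intestine, fewer cells of a type and less RNA per cell cannot be told apart.

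3 arrays bear on the reading of the channel genes. Over all probes, the arrays of the 5 pairs at 4 h and the 4 pairs at 20 min had SDs of 0.33 to 0.40, and Pearson's r between any 2 of these 9 was at least 0.28 across probes. Among the self-self arrays the SD was 1.39 on 1HG, 0.35 on 3HG and 0.30 on 3HF. Array 6 had an SD of 0.82, and its ratio for Slc2a5 was -1.66, opposite in sign to the mean of the other arrays at 4 h. Its title differs from that of array 2 by an added 5 after HG and an added 3 after HF. Whether these digits mark a change of dyes is not stated. Array 6 was left out of every test, as was the primer array.

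The potassium channel genes as a group lay close to 0. In 51 of the 64 genes (79.7%) the mean at 4 h, the mean at 20 min and the median of the self-self arrays were all under 0.25 in size, against 65.7% of all features. No gene passed in the comparison of 4 h with self-self, at an adjusted p below 0.05 from limma fitted across all 4682 features, where 0.0641% of all features passed. In 20 min against self-self 0 of the 64 passed, with 0.0427% of all features. In 4 h against 20 min 0 of the 64 passed, with 0.598% of all features. The lowest adjusted p among the 64 in limma was 0.401 (Kcnip1) for 4 h against self-self. It was 0.801 for 20 min against self-self, shared by 10 genes, and 0.217 (Kcnn4) for 4 h against 20 min.

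At an unadjusted p below 0.05 in the same limma fit, 2 of the 64 genes passed for 4 h minus self-self (Kcnip1 and Kcnj1), where 9.97% of all features did. For 20 min minus self-self it was 5 (Kcnh5, Kcnj1, Kcnj6, Kcnj11 and Kcnv1), with 5.21% of all features. For 4 h minus 20 min it was also 5 (Kcnab1, Kcng1, Kcnj8, Kcnn4 and Kcnv1), with 13.5% of all features. The median difference over the 64 genes was 0.02 for 4 h minus self-self, with 34 genes above 0, and the median over all features was -0.01. It was 0.05 for 20 min minus self-self, with 35 genes above 0, beside 0.00 over all features. It was 0.05 for 4 h minus 20 min, with 41 genes above 0, beside -0.01 over all features.

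**Figure D1:**
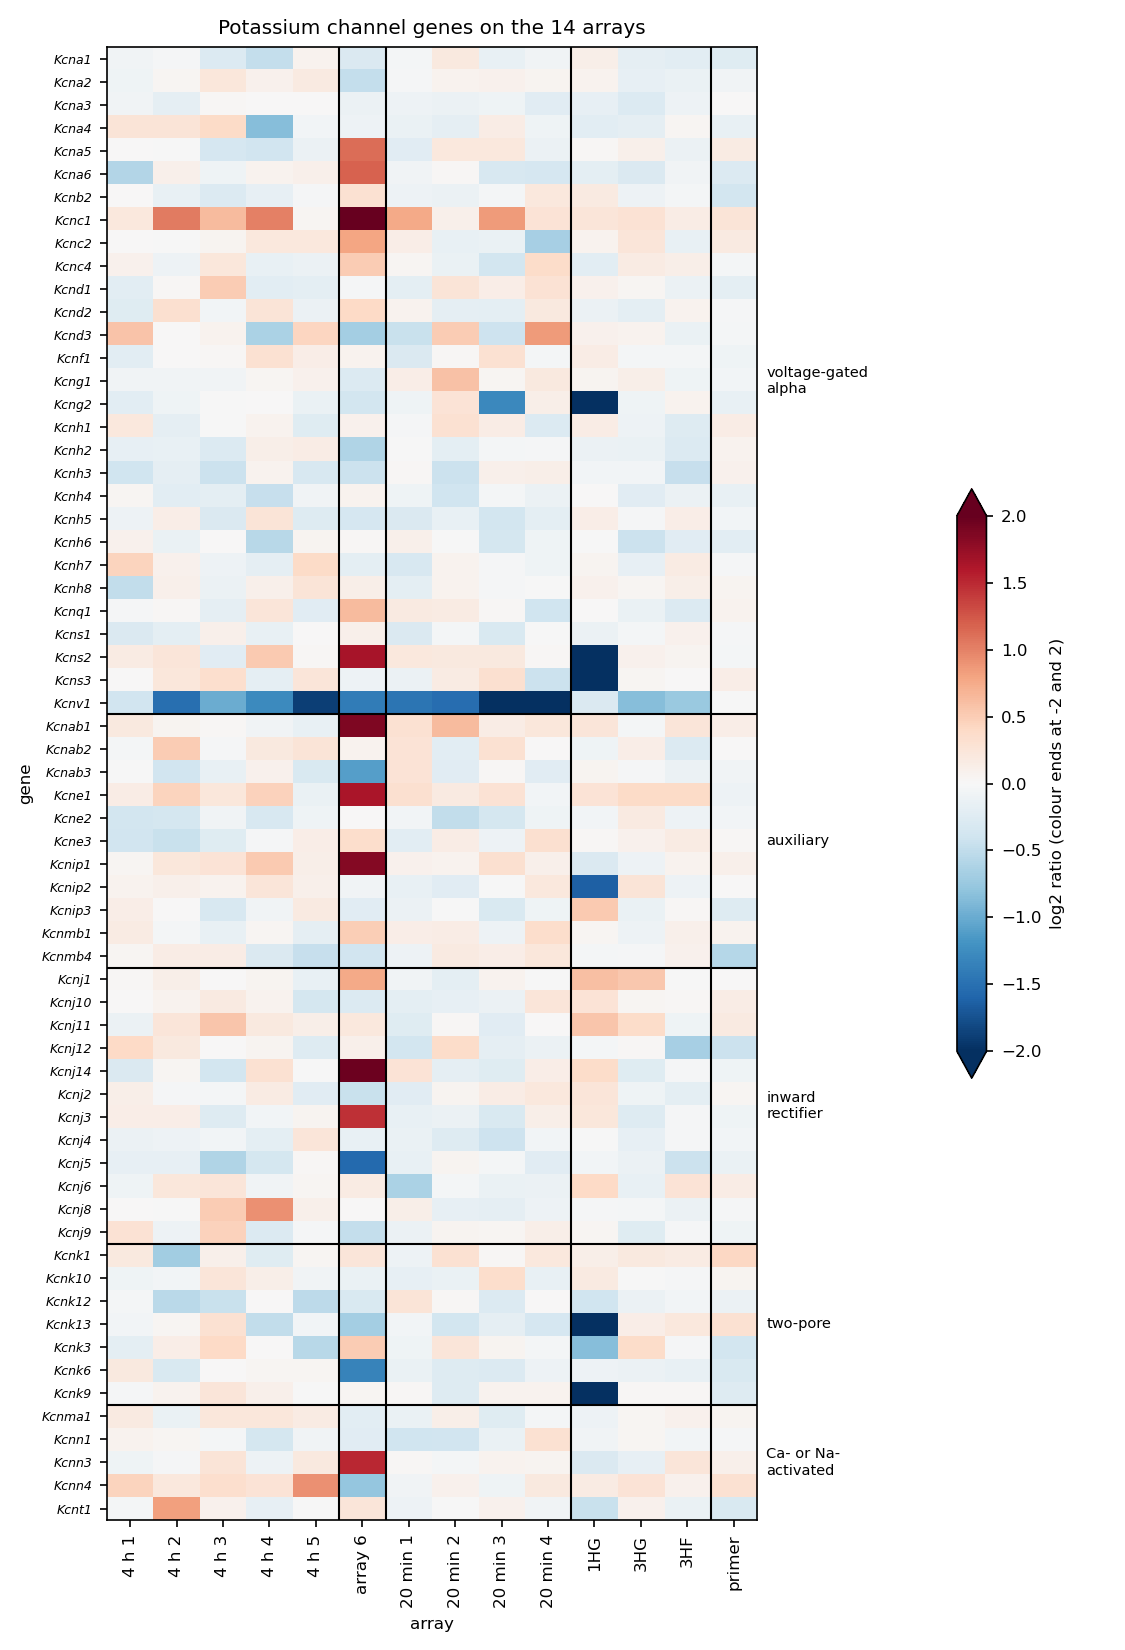
Log2 ratio of each of the 64 potassium channel genes (rows, by channel class) on the 14 arrays (columns, 4 h, array 6, 20 min, self-self and primer), with colours ending at -2 and 2. Most cells are pale, the row of Kcnv1 is blue on all arrays but the primer array, the column of array 6 holds many dark cells, and 1HG holds a few genes far below 0.

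The heatmap of the 64 genes shows where the large ratios lie. Most of them fall in the row of Kcnv1 and in the columns of array 6 and 1HG, which are taken up in turn. The row that stands out most in the other direction is Kcnc1.

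The voltage-gated alpha subunits were the largest class, with 29 genes on 30 probes. Their median over genes was -0.03 at 4 h, -0.03 at 20 min and -0.05 for the self-self medians. The 4 h means ran between -1.21 (Kcnv1) and 0.59 (Kcnc1), and the 20 min means between -1.92 (Kcnv1) and 0.50 (Kcnc1). In 25 of the 29 genes all 3 summaries were under 0.25 in size.

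Kcnv1 encodes Kv8.1, a modifier subunit that forms no channel alone. Its log2 ratios were -0.39, -1.51, -0.995, -1.28 and -1.89 on the 5 arrays at 4 h. They were -1.47, -1.53, -2.34 and -2.36 on the 4 arrays at 20 min, and -0.29, -0.86 and -0.74 on the self-self arrays 1HG, 3HG and 3HF. All 12 ratios were negative, those at 20 min lay below every self-self ratio, and those at 4 h overlapped both other sets. Array 6 gave -1.39, the same sign as the arrays at 4 h, and the primer array gave -0.01.

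The mean of Kcnv1 was -1.21 ± 0.56 at 4 h (SD, n = 5), -1.92 ± 0.49 at 20 min (SD, n = 4) and -0.63 ± 0.30 on the self-self arrays (SD, n = 3). Against 0, the means at 4 h and at 20 min passed (limma adjusted p = 0.00137 and 0.00033), and the self-self mean did not (limma adjusted p = 0.251). 20 min minus self-self was -1.30 (SE 0.34, 95% interval -2.03 to -0.56), which did not pass over all features (limma adjusted p = 0.801). The difference of 4 h from self-self was -0.58 (SE 0.32, limma adjusted p = 0.502), and 4 h minus 20 min was 0.71 (SE 0.30, limma adjusted p = 0.314). With array 6 averaged into pair 2 and its sign turned, 4 h minus self-self was -0.29, and with quantile normalization 4 h minus 20 min was 1.23. Kcnv1 was thus below 0 also on the 3 arrays whose channels held the same RNA.

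Kcnv1 was the only potassium channel gene whose ratio recurred in all 3 sets, which was taken as the same sign and a size of at least 0.25 in the 4 h mean, the 20 min mean and the self-self median. That is 1 of 64 (1.56%), against 6.49% of all features. At a size of at least 0.15 Kcnc1 and Kcne1 met it too, against 12% of all features.

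Kcnc1 encodes Kv3.1, a fast delayed rectifier of neurons that fire at high rates. Its ratios were 0.21, 1.05, 0.63, 1.01 and 0.04 at 4 h. They were 0.76, 0.10, 0.85 and 0.28 at 20 min, and 0.24, 0.30 and 0.15 on the self-self arrays. All 12 were positive, and the 3 sets overlapped. The primer array gave 0.25, a size like that of the self-self arrays.

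The mean of Kcnc1 was 0.59 ± 0.46 at 4 h (SD, n = 5), 0.50 ± 0.36 at 20 min (SD, n = 4) and 0.23 ± 0.07 on the self-self arrays (SD, n = 3). Its difference of 4 h from self-self was 0.36 (SE 0.25, 95% interval -0.18 to 0.90, limma adjusted p = 0.590), and it was -0.11 with array 6 averaged into pair 2 with its sign turned. 20 min minus self-self was 0.27 (SE 0.26, limma adjusted p = 0.942). The 4 h mean passed against 0 (limma adjusted p = 0.0188), but not without replicate 2, 3 or 4 of the 4 h arrays, nor with array 6 averaged in with its sign turned. On array 6 Kcnc1 gave 3.69, the highest ratio of any potassium channel gene on any array.

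Kcnh5 encodes Eag2, a voltage-gated channel of the ether-a-go-go family. Its ratios were -0.10, 0.13, -0.28, 0.26 and -0.25 at 4 h, -0.28, -0.15, -0.37 and -0.20 at 20 min, and 0.14, -0.02 and 0.14 on the self-self arrays. Those at 20 min lay below every self-self ratio, and those at 4 h spread across 0. 20 min minus self-self was -0.34 (SE 0.14, limma adjusted p = 0.801). Kcnh5 and Kcnv1 were the 2 genes of 64 (3.12%) whose arrays at 20 min did not overlap the self-self arrays, against 7.01% of all features.

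Kcnq1 encodes the pore of a basolateral channel of secretory epithelium. Its ratios were -0.02, 0.02, -0.18, 0.24 and -0.23 at 4 h, 0.18, 0.17, 0.02 and -0.40 at 20 min, and 0.01, -0.13 and -0.27 on the self-self arrays. The sets overlapped. The difference of 4 h from self-self was 0.10 (95% interval -0.23 to 0.42, limma adjusted p = 0.852), and that of 4 h from 20 min was -0.03 (95% interval -0.33 to 0.27).

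Kcnh2 encodes the ERG channel of heart and smooth muscle. Its ratios, averaged over its 2 probes, were -0.17, -0.15, -0.27, 0.11 and 0.15 at 4 h, -0.0042, -0.20, -0.04 and -0.02 at 20 min, and -0.11, -0.13 and -0.27 on the self-self arrays. The sets overlapped, and 4 h minus self-self was 0.11 (95% interval -0.14 to 0.36). Its 2 probes gave means of -0.14 and 0.0051 at 4 h, beside an SD of 0.19 between the arrays. Kcna1 encodes Kv1.1, a low-threshold channel of axons. Its ratios were -0.07, -0.03, -0.28, -0.48 and 0.07 at 4 h, -0.04, 0.20, -0.14 and -0.07 at 20 min, and 0.12, -0.19 and -0.21 on the self-self arrays, and these overlapped as well.

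**Figure D2:**
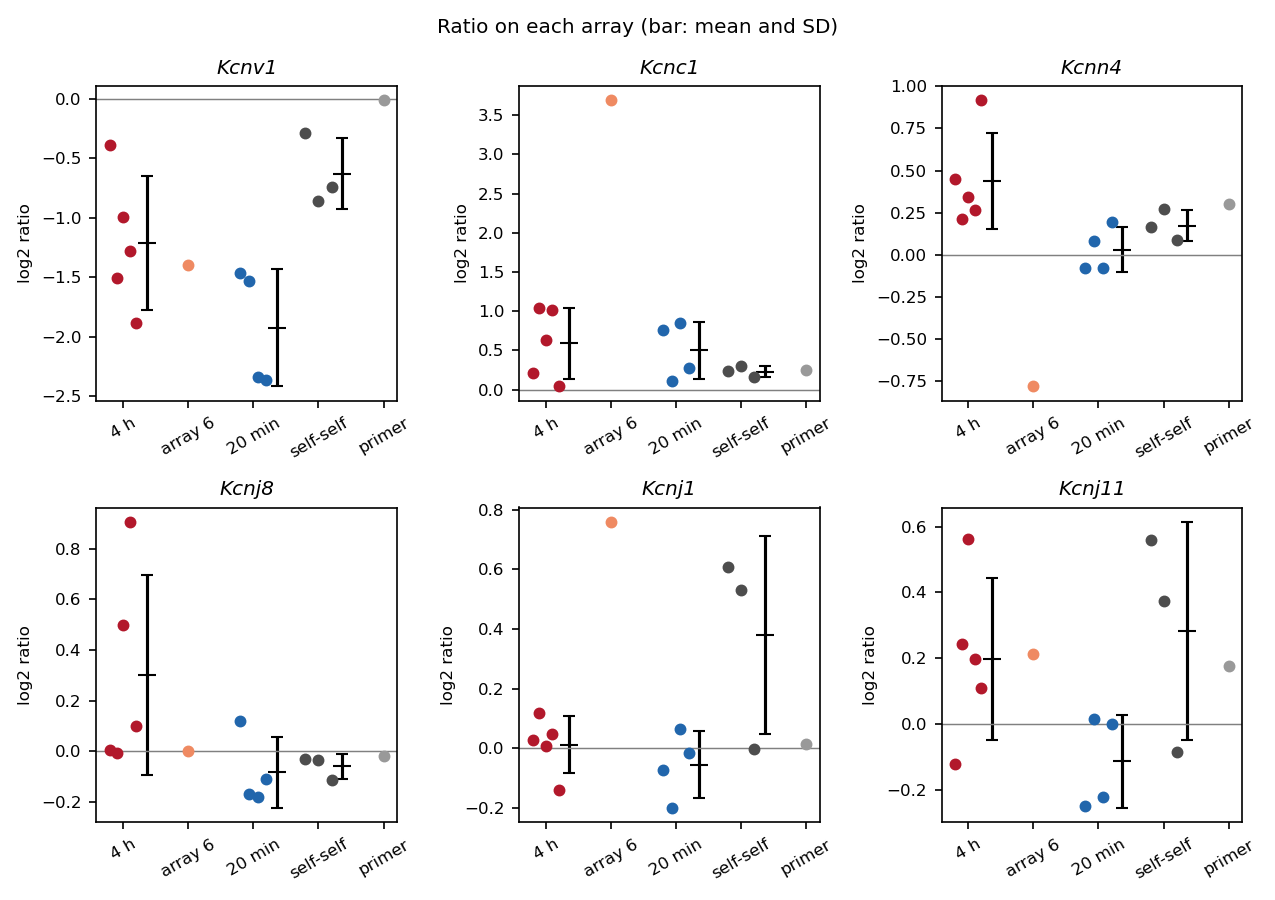
Log2 ratio of 6 potassium channel genes on each array (points) at 4 h, on array 6, at 20 min, on the self-self arrays and on the primer array, with bars for the mean and SD of each set of arrays. Kcnv1 is below 0 in all 3 sets of arrays and near 0 on the primer array, and Kcnn4 at 4 h lies above every array at 20 min.

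The plots of 6 genes by array put the values just given beside those of the genes that follow. The self-self points of Kcnj1 and Kcnj11 are split, with 1HG and 3HG above and 3HF near 0, although all 3 arrays carry 1 RNA in both channels.

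The class of channels gated by calcium or sodium held 5 genes, and all 5 had a 4 h minus 20 min difference above 0, with a median of 0.16. Such a difference was above 0 in 41 of the 64 genes and in 2249 of all 4682 features. None of the 5 differences in the class passed, and the smallest was 0.02. The 4 h means ran between -0.07 and 0.44 and the 20 min means between -0.15 and 0.03.

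Kcnn4 encodes the intermediate-conductance calcium-activated channel of epithelia and blood cells, which in gut carries basolateral potassium during calcium-driven secretion. Its ratios were 0.45, 0.21, 0.34, 0.27 and 0.92 at 4 h. They were -0.08, 0.08, -0.08 and 0.20 at 20 min, and 0.16, 0.27 and 0.09 on the self-self arrays. Every array at 4 h lay above every array at 20 min although the nearest values nearly met, and the self-self arrays lay between and overlapped both. Kcnn4 was the 1 gene of 64 (1.56%) whose arrays at 4 h and 20 min did not overlap, against 6.54% of all features.

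Kcnn4 averaged 0.44 ± 0.28 at 4 h (SD, n = 5), 0.03 ± 0.13 at 20 min (SD, n = 4) and 0.17 ± 0.09 on the self-self arrays (SD, n = 3). 4 h minus 20 min was 0.41 (SE 0.14, 95% interval 0.11 to 0.71, limma adjusted p = 0.217). Between 4 h and self-self the difference was 0.26 (SE 0.15, 95% interval -0.06 to 0.59, limma adjusted p = 0.512), and without replicate 5 of the 4 h arrays it was 0.14. The 4 h mean passed against 0 (limma adjusted p = 0.00663), and in 18 of 19 alternative settings, the exception being array 6 averaged into pair 2 as deposited. Array 6 gave -0.78, opposite in sign to all 5 arrays at 4 h, and the primer array gave 0.30.

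Kcnma1 encodes the pore of the large-conductance BK channel. Its ratios were 0.18, -0.13, 0.22, 0.22 and 0.16 at 4 h, -0.13, 0.12, -0.25 and -0.04 at 20 min, and -0.10, 0.04 and 0.08 on the self-self arrays. Replicate 2 at 4 h stood apart, below the other 4, and the sets overlapped. 4 h minus 20 min was 0.21 (SE 0.10, 95% interval -0.02 to 0.43, limma adjusted p = 0.419). Of the others, Kcnn1, Kcnn3 and Kcnt1 had means at 4 h between -0.07 and 0.14.

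The inward rectifiers held 12 genes on 13 probes. Their median over genes was 0.01 at 4 h and -0.08 at 20 min. A 4 h minus 20 min difference above 0 was seen in 9 of 12, with a median of 0.09, beside 41 of the 64 genes and 2249 of all 4682 features. In 7 of the 12 all 3 summaries were under 0.25 in size, the lowest share of the 5 classes, against 65.7% of all features. Kcnj1, Kcnj6 and Kcnj11 were outside through the self-self median alone (0.53, 0.28 and 0.37). Kcnj5 and Kcnj8 were outside through the 4 h mean (-0.2511 and 0.30).

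Kcnj8 encodes Kir6.1, the pore of the ATP-sensitive channel of vascular and other smooth muscle. Its ratios were 0.01, -0.01, 0.50, 0.91 and 0.10 at 4 h. They were 0.12, -0.17, -0.18 and -0.11 at 20 min, and -0.03, -0.03 and -0.12 on the self-self arrays. At 4 h replicates 3 and 4 were high and replicates 1, 2 and 5 were near the self-self arrays, yet all 5 lay above the 3 self-self values. Kcnj8 was the 1 gene of 64 (1.56%) with no overlap between 4 h and self-self, against 6.71% of all features.

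4 h minus self-self for Kcnj8 was 0.36 (SE 0.19, 95% interval -0.05 to 0.78, limma adjusted p = 0.492). Without replicate 4 of the 4 h arrays it was 0.21. 4 h minus 20 min was 0.38 (SE 0.17, limma adjusted p = 0.362), and 0.23 without that replicate. Abcc9, which encodes the SUR2 subunit that partners Kir6.1, had a 4 h minus self-self difference of 0.15 (limma adjusted p = 0.677).

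Kcnj11 encodes Kir6.2, the pore of the ATP-sensitive channel of beta cells and of enteroendocrine cells. Its ratios were -0.12, 0.24, 0.56, 0.20 and 0.11 at 4 h. They were -0.25, 0.02, -0.22 and 0.0007 at 20 min, and 0.56, 0.37 and -0.08 on the self-self arrays. The arrays at 4 h overlapped those at 20 min through replicate 1 alone, and the self-self arrays overlapped both. 4 h minus 20 min was 0.31 (SE 0.16, 95% interval -0.03 to 0.65, limma adjusted p = 0.416, exact permutation p = 0.0635, two-sided). Abcc8, which encodes the SUR1 subunit, had a 4 h minus self-self difference of 0.02 (limma adjusted p = 0.967). Abcc8 and Abcc9 are named for their roles, after their values were seen.

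Kcnj1 encodes ROMK, the potassium secretory channel of the kidney. Its ratios were 0.03, 0.12, 0.01, 0.05 and -0.14 at 4 h. They were -0.07, -0.20, 0.07 and -0.01 at 20 min. The self-self arrays 1HG and 3HG gave 0.61 and 0.53, and 3HF gave -0.0025. Kcnj1 is given by array because its self-self median reached 0.5, through 2 arrays on which both channels held the same RNA, while the pairs of HG and HF lay near 0. The 4 h arrays differed from the self-self arrays by -0.37 (SE 0.14, limma adjusted p = 0.406) and the 20 min arrays by -0.43 (SE 0.14, limma adjusted p = 0.801).

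The 2 probes of Kcnj3, which encodes a subunit of channels opened by G proteins, had means of different sign at 4 h with sizes under 0.1, and they gave 0.95 and 1.99 on array 6. Of the genes with known roles in gut, the inward rectifiers Kcnj13, Kcnj15 and Kcnj16 and the two-pore gene Kcnk5 were not measured under their symbols.

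The auxiliary subunits held 11 genes. Their medians over genes were -0.01 at 4 h and 0.09 at 20 min, and 9 of 11 had all 3 summaries under 0.25 in size.

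Kcne3 encodes the partner that holds the Kcnq1 channel open in intestinal epithelium. Its ratios were -0.38, -0.44, -0.25, -0.03 and 0.13 at 4 h. They were -0.21, 0.15, -0.10 and 0.32 at 20 min, and 0.02, 0.09 and 0.17 on the self-self arrays. At 4 h, replicates 1 to 4 lay below the self-self arrays and replicate 5 lay among them. For Kcne3, 4 h minus self-self was -0.28 (SE 0.15, 95% interval -0.62 to 0.05, limma adjusted p = 0.496, exact permutation p = 0.107, two-sided), and for Kcnq1 it was 0.10.

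Kcne1 encodes minK, which slows the opening of Kcnq1 channels. Its ratios were 0.16, 0.44, 0.23, 0.47 and -0.14 at 4 h, 0.32, 0.18, 0.29 and -0.05 at 20 min, and 0.27, 0.38 and 0.38 on the self-self arrays. The sets overlapped, and the self-self mean of 0.34 ± 0.06 (SD, n = 3) was above the means of 0.23 at 4 h and 0.19 at 20 min. Kcnmb1 encodes the beta subunit of the BK channel in smooth muscle. Its ratios were 0.16, -0.04, -0.14, 0.04 and -0.17 at 4 h, 0.13, 0.15, -0.10 and 0.35 at 20 min, and 0.05, -0.11 and 0.11 on the self-self arrays, and the sets overlapped.

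Kcnab1 encodes a cytoplasmic beta subunit of Kv1 channels. Its 20 min mean was 0.33 ± 0.21 (SD, n = 4), above 0 on all 4 arrays, and passed against 0 (limma adjusted p = 0.0411), but did so in only 10 of 19 alternative settings. It did not pass without replicate 2, 3 or 4 at 4 h, without replicate 1, 2 or 4 at 20 min, without 3HF, or with array 6 averaged in either way. The self-self arrays gave 0.24, -0.03 and 0.24 for Kcnab1, and 20 min minus self-self was 0.18 (SE 0.13, limma adjusted p = 0.886). 4 h minus 20 min was -0.32 (SE 0.12, limma adjusted p = 0.261). Kcnip1 encodes a calcium-binding partner of Kv4 channels. Its 4 h mean was 0.24 ± 0.18 (SD, n = 5), and 4 h minus self-self was 0.34 (SE 0.12, limma adjusted p = 0.401). Without 1HG that difference was 0.25. Kcnab1 and Kcnip1 are named for their p or their count and were chosen after their values were seen.

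The two-pore-domain channels, which carry background potassium current, held 7 genes, and 6 of them had all 3 summaries under 0.25 in size. Their 4 h means ran between -0.31 and 0.08 and their 20 min means between -0.24 and 0.11. No two-pore gene had arrays that did not overlap between any 2 sets, against 6.54% to 7.01% of all features in the 3 comparisons. For Kcnk13 the arrays at 20 min (-0.06, -0.37, -0.18 and -0.33) overlapped the self-self arrays through 1HG alone (-3.38). On 3HG and 3HF it gave 0.13 and 0.205.

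Tests of each set against 0 passed more features than tests between sets. At 4 h 3 of the 64 genes passed (Kcnc1, Kcnn4 and Kcnv1; 4.69%), against 16.3% of all features. At 20 min 2 passed (Kcnab1 and Kcnv1; 3.12%), against 8.2% of all features. On the self-self arrays 0 passed, against 3.63% of all features, while 8 of the 64 did at an unadjusted p below 0.05, against 17.5% of all features. Without adjustment 11 genes passed at 4 h and 9 at 20 min, against 29.1% and 18.8% of all features. All 5 arrays at 4 h were above 0 for 4 genes (Kcnc1, Kcnip1, Kcnip2 and Kcnn4), against 13.5% of all features, and below 0 for 2 (Kcne2 and Kcnv1), against 12.6%. All 4 arrays at 20 min were above 0 for 5 genes, against 15.3% of all features, and below 0 for 12, against 14.4%. All 3 self-self arrays were above 0 for 7 genes, against 18.9% of all features, and below 0 for 11, against 19.6%.

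**Figure D3:**
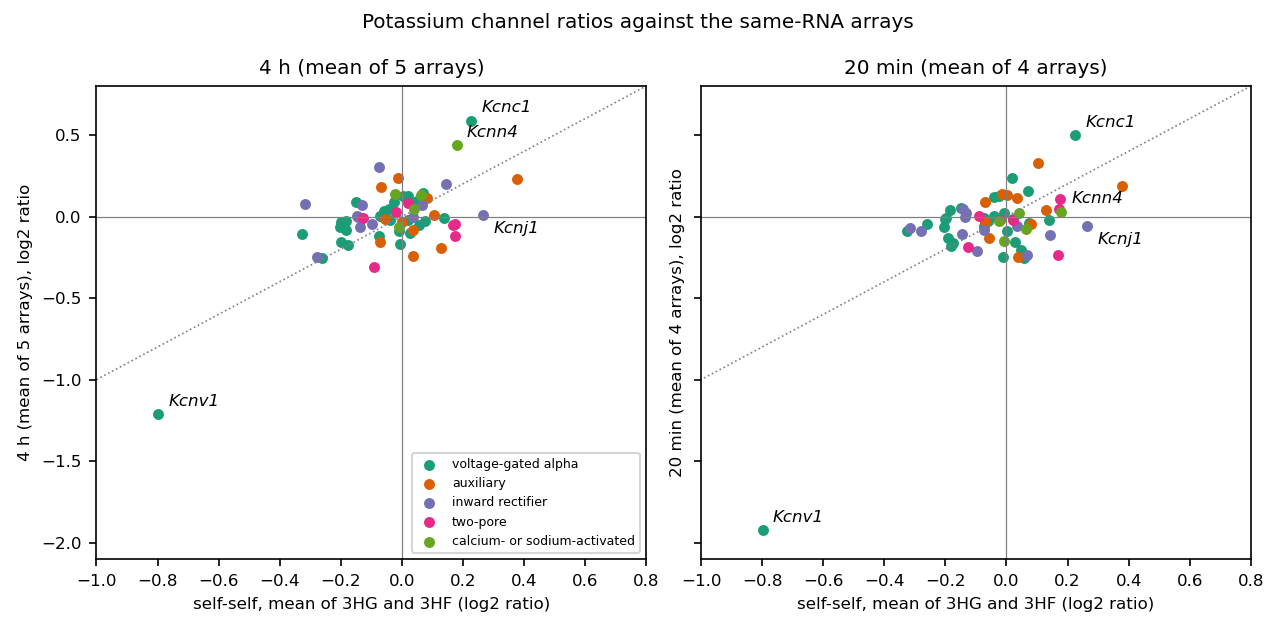
Mean log2 ratio of the 64 potassium channel genes at 4 h (left) and at 20 min (right) against the mean of the self-self arrays 3HG and 3HF, with points coloured by channel class and a dotted line of equality. Kcnv1 lies far below the other genes and below the line in both panels, and Kcnc1 lies above the line in both.

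The plot of the ratios against the self-self arrays shows that Kcnv1 carries much of the relation. Across the 64 genes, Pearson's r between the 4 h mean and the mean of 3HG and 3HF was 0.64 (Spearman 0.36), and without Kcnv1 it was 0.41 (Spearman 0.33). Between the 20 min mean and the same 2 arrays it was 0.61 (Spearman 0.23), and without Kcnv1 0.28 (Spearman 0.19). Over all features the values were 0.65 (Spearman 0.43) and 0.72 (Spearman 0.50). Genes are not independent replicates, the arrays share probes, and no test was made.

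**Figure D4:**
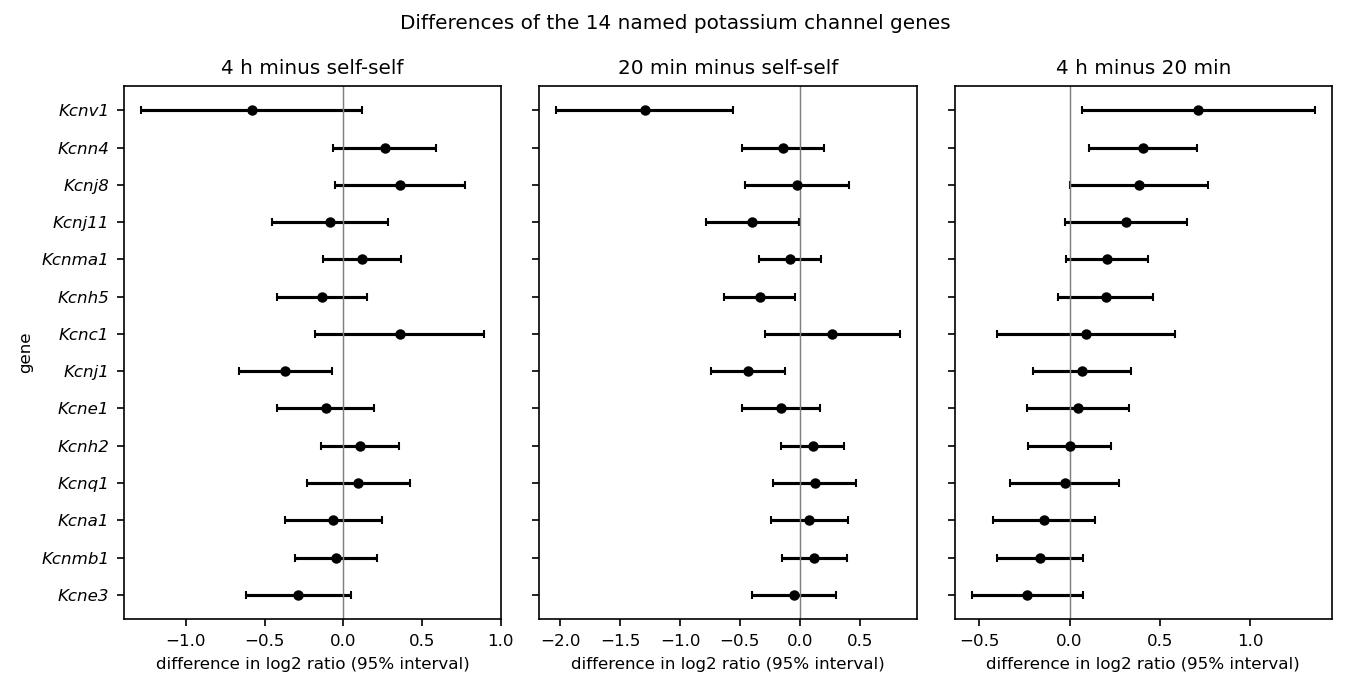
Difference in log2 ratio of 14 potassium channel genes between 4 h and self-self (left), 20 min and self-self (middle), and 4 h and 20 min (right) as points, with 95% intervals from limma (bars). Most intervals span 0, and those that do not belong to Kcnj1 on the left, Kcnv1, Kcnh5, Kcnj1 and Kcnj11 in the middle, and Kcnv1, Kcnn4 and Kcnj8 on the right, with no adjustment for the number of features.

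The plot of differences sets the 14 genes given by array side by side. Arrays that did not overlap were 1 of the rules that chose genes for it, so the exact permutation p of those comparisons (Kcnv1 and Kcnh5 for 20 min minus self-self, Kcnn4 for 4 h minus 20 min and Kcnj8 for 4 h minus self-self) is not given.

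The self-self array 1HG set the difference from self-self for several genes. It gave -7.44 for Kcns2, -7.08 for Kcns3, -6.49 for Kcnk9, -5.29 for Kcng2, -3.38 for Kcnk13 and -1.64 for Kcnip2. Kcns2, Kcns3 and Kcng2 encode modifier subunits that form no channel alone, Kcnk9 and Kcnk13 encode two-pore channels, and Kcnip2 encodes a partner of Kv4 channels. The probes of the first 5 genes are near each other in the deposited table, at numbers 522 to 527, and that of Kcnip2 is at number 99.

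In the stretch of probes 500 to 550, 25 of 51 probes of any gene were below -2 on 1HG, and others were far above 0. The scatter thus went in both directions. Of the first 750 probes, 149 were beyond 2 in size, and 72 of these 149 were below -2. Among the first 750 probes 19.9% of all probes were beyond 2 in size, against 0.0267% of the 3750 probes that followed. Of the 452 probes above number 4500, 78 (17.3%) were beyond 2 in size. Among the potassium channel probes it was 5 of 13 in the first 750, 0 of 49 in the next 3750 and 0 of 4 above number 4500. Positions on the glass were not analysed here.

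For 4 h minus self-self, these genes lay near the others without 1HG. The 4 h minus self-self difference was 2.58 for Kcns2 with 1HG and 0.08 without it. For Kcns3 it was 2.47 with it and 0.10 without it, for Kcnk9 2.23 and 0.06, and for Kcng2 1.68 and -0.08. For Kcnk13 the difference was 0.96 with it and -0.22 without it. For 20 min minus self-self, Kcnk13 had 0.78 with 1HG and -0.40 (SE 0.185) without it. Over the other 58 genes the differences ran between -0.58 (Kcnv1) and 0.36 (Kcnj8) for 4 h minus self-self. With 1HG left out, Kcnv1 had -0.41 for 4 h minus self-self and -1.13 for 20 min minus self-self. Kcnj1 then had -0.25 (SE 0.15) for 4 h minus self-self and -0.32 (SE 0.16) for 20 min minus self-self. For Kcnj11, 20 min minus self-self was -0.40 with 1HG and -0.26 (SE 0.19) without it.

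**Figure D5:**
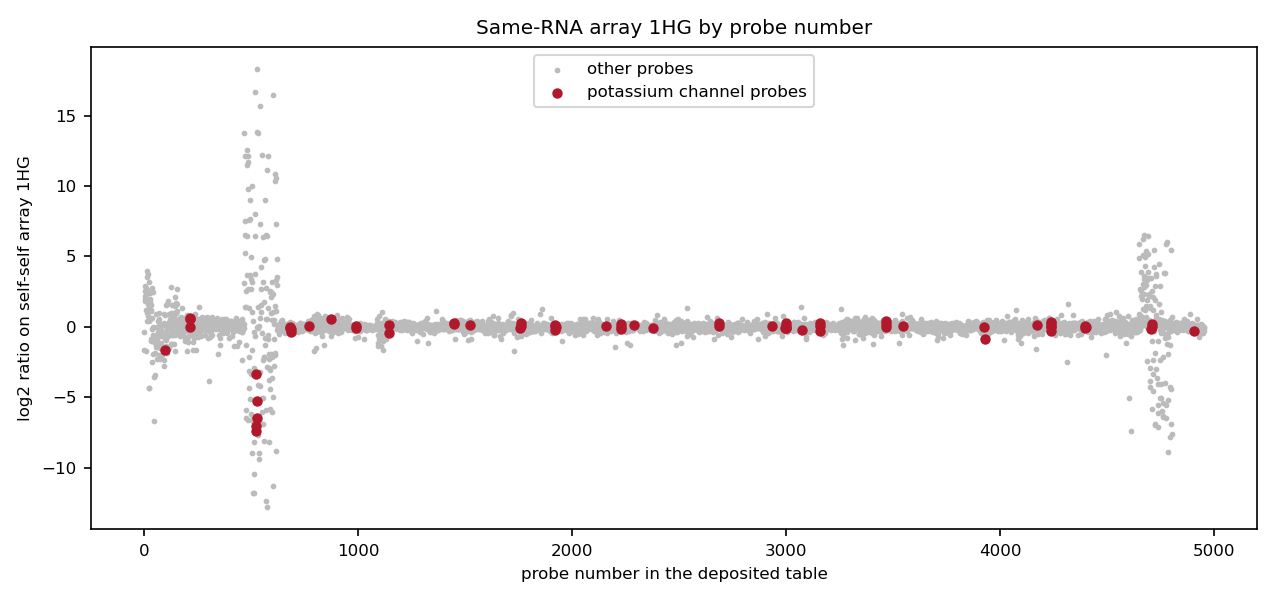
Log2 ratio on the self-self array 1HG by probe number in the deposited table, with the potassium channel probes in red and the others in grey. The extreme ratios sit in stretches near the start and near the end of the table, and 5 potassium channel probes lie in the stretch near number 525.

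The plot of 1HG by probe number shows the stretches, and the 49 potassium channel probes between them were all under 2 in size.

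Array 6 gave ratios above 1 in size for 14 of the 64 genes (21.9%), against 14.3% of all features. Its sign was opposite to the mean of arrays 1 to 5 for 26 of the 64 genes (40.6%), against 43.2% of all features. Kcnc1 and Kcnv1 kept their sign on it, and Kcnn4 did not.

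Genes on 3 lists that work beside the potassium channels were read in the same fit. Of 9 channel partners measured of 14 listed, 0 passed in any of the 3 comparisons, and their 4 h minus 20 min median was -0.02 with 4 of 9 above 0. Of 16 pumps and cotransporters measured of 27, 0 passed, and their median was 0.07 with 10 of 16 above 0. Slc12a5, a potassium chloride cotransporter of neurons, had -0.37 for 4 h minus 20 min (limma adjusted p = 0.134). Of 7 chloride channel genes measured of 13, 0 passed, and their median was -0.18 with 3 of 7 above 0. Clcn3, an endosomal chloride transporter, had -0.39 (limma adjusted p = 0.165). Slc12a2, the cotransporter that loads chloride into secretory cells, had 0.26 (limma adjusted p = 0.405) and is named for its role, after its value was seen.

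Marker lists of the cell types that carry these channels did not pass in any comparison either. Of 7 enterocyte markers measured, 0 passed, the 4 h minus 20 min median was -0.37 and 2 of 7 were above 0. Apoa1, an enterocyte apolipoprotein, had -0.44 (limma adjusted p = 0.126). Of 5 smooth muscle markers 0 passed, with a median of -0.11 and 1 of 5 above 0, and Cnn1, a calponin of smooth muscle, had -0.47 (limma adjusted p = 0.274). The median of 16 markers of enteric neurons and glia was 0.02, with 10 of 16 above 0, and that of 9 enteroendocrine markers was -0.09, with 2 of 9 above 0, and 0 of either list passed. The part of cell composition in the ratios of Kcnn4, Kcnj8 and Kcne3 was not tested.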

How the data were processed

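The authors deposited 1 table of log ratios for 4952 probes on 14 arrays, treated here as log2 values. Not given in the sources used here are the base, the direction, the dyes on the tissue arrays, the scanner, the background correction and the normalization. Another base would scale each difference by 1 factor and leave signs and p-values as they are. Gene symbols came from the platform annotation.

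The median of every array was set to 0, probes sharing a symbol were averaged, and 12 arrays (4 h 5, 20 min 4, self-self 3) were fitted together in limma 3.58.1 (R 4.3.3), with Benjamini-Hochberg adjustment over all 4682 features. Array 6 and the primer array were left out. Dim probes were not removed, as intensities were not analysed here, and the number of arrays limits the precision. The fit was tested on simulated data. Exact permutation tests over arrays were run for 14 genes, 42 tests in all.

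Values are given by array for genes that passed a comparison, had a mean or self-self median of at least 0.5 in size, had groups that did not overlap with a difference of at least 0.3, or stood in a fixed set of 15 genes with known roles in gut. The members, lists and rules were chosen with earlier results of these data known. Alternatives were each array left out, array 6 averaged in with either sign, other scaling and centring, array weights, robust variances, unaveraged probes, 2 groups alone, a replicate block and other recurrence thresholds.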

Additional observations from a re-analysis of the deposited data

Results flagged for a closer look

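Among the named genes, 28 sets of 4 or 5 arrays were looked at for a value far from the others, and chance gives about 1 in 20. Kcnma1 had 1 such value, -0.13 on replicate 2 at 4 h, whose gap to the nearest of the other 4 was 0.819 of the range.

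Array 6 was used in no comparison, and ratios on it above 1 in size and larger in size than on every self-self array were seen for 13 of the 64 genes (20.3%), against 13.2% of all features. They were positive for Kcnc1 (3.69), Kcnj14 (1.96), Kcnab1 (1.87), Kcnip1 (1.84), Kcne1 (1.63), Kcnn3 (1.51), Kcnj3 (1.47), Kcna6 (1.17) and Kcna5 (1.12). They were negative for Kcnj5 (-1.56), Kcnv1 (-1.39), Kcnk6 (-1.34) and Kcnab3 (-1.10).

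The primer array carried no tissue RNA by its label. Ratios above 0.3 in size and larger in size than on every self-self array were seen on it for 5 of the 64 genes (7.81%), against 5.47% of all features. These were Kcnk1 (0.41) and Kcnn4 (0.30) above 0, and Kcnmb4 (-0.57), Kcnb2 (-0.37) and Kcnk6 (-0.31) below 0.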

How the results depend on the processing

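In all alternatives run, 0 of the 64 genes passed in any of the 3 comparisons. Deviations of same-numbered arrays at 4 h and 20 min from their group means correlated at -0.07, 0.16, -0.03 and -0.02 across features. Such correlations cannot tell whether the numbers mark shared animals or batches, which the labels do not say. Features passing for 4 h minus self-self (3) were 2 to 5 with 1 array left out and 0 with array 6 averaged in as deposited. For 20 min minus self-self (2) they were 0 to 4 with 1 array left out, and 0 with the replicate block, with array 6 averaged in either way, with arrays scaled to one spread and with the 2 groups alone. For 4 h minus 20 min (28) they were 4 to 43 with 1 array left out, 12 with the replicate block, 0 and 18 with array 6 as deposited and with its sign turned, and 16 with arrays scaled. Potassium channel genes passing against 0 were 2 to 5 at 4 h (3), 1 to 2 at 20 min (2) and 0 to 1 for self-self (0) with 1 array left out. With array 6 averaged in either way 1 passed at 20 min, and with arrays scaled 2 passed for self-self. The share of all features passing against 0 was not counted in these alternatives, so these changes cannot be set beside it. At a recurrence threshold of 0.15, 3 genes recurred, against 12% of all features.

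Signs turned for the differences given here, and the cause was not tested. With the sign of array 6 turned, Kcnc1 had -0.11 for 4 h minus self-self and -0.38 for 4 h minus 20 min, where Kcne1 had -0.16 and Kcnj1 -0.0201. With array 6 as deposited, 4 h minus self-self was 0.0076 for Kcne1 and 0.0058 for Kcnmb1, and 4 h minus 20 min was -0.0445 for Kcnh2 and 0.0356 for Kcnq1. With the replicate block, 4 h minus 20 min was -0.055 for Kcnh2 and 0.0216 for Kcnq1. With array weights Kcnj11 had 0.0277 for 4 h minus self-self. With 1 array left out, 4 h minus self-self ran between -0.12 and 0.0441 for Kcna1 and between -0.27 and 0.0539 for Kcnj11. 20 min minus self-self ran between -0.15 and 0.031 for Kcne3 and between -0.0928 and 0.0074 for Kcnj8. 4 h minus 20 min ran between -0.0408 and 0.23 for Kcnc1, -0.034 and 0.14 for Kcne1, -0.055 and 0.0519 for Kcnh2, and -0.16 and 0.0352 for Kcnq1. Signal over background was not analysed here.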
